A study of Mus musculus with 12 samples.

Results

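The genes described here build and move cilia and flagella. They were taken by name: every gene whose only symbol in the platform annotation was Ift or Bbs followed by a digit, began with Cfap, Dnah, Dnai, Dnal, Tekt, Rsph or Drc, or was Foxj1, Ccdc39 or Ccdc40. The rule found 78 genes of the 18193 measured, and the rule itself uses names only. RNA came from neural stem cells of the subventricular zone, the stem cell layer along the lateral ventricles, of adult male C57B6J mice, isolated fresh by flow cytometry and measured on Affymetrix MOE 430 2.0 arrays. The 3 groups were quiescent cells, irradiated quiescent cells sorted 48 h after the exposure, and activated cells. The labels describe 4 samples in each. Quiescent replicate 3 and activated replicate 4 hold no values and were not analysed here, so 3 quiescent, 4 irradiated and 3 activated arrays remained. The sources used here give no radiation dose, sort markers or number of mice per sample. The p-values therefore set group differences only against how far these samples differ within a group, and that spread may be technical variation.

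A cilium is a microtubule axoneme that grows from a modified centriole, and intraflagellar transport (IFT) particles carry its building blocks along it. Quiescent neural stem cells bear a single immotile primary cilium, which receives hedgehog signals and is taken down when a cell divides. The neighbouring ependymal cells bear tufts of motile cilia, whose axonemes also hold dynein arms, radial spokes and regulatory complexes and are made under the transcription factor Foxj1. The BBSome, built of Bardet-Biedl syndrome (BBS) proteins, moves membrane proteins out of the cilium.

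RFX transcription factors bind the X-box, a pair of inverted arms before many cilium genes, and forkhead factors such as Foxj1 bind GTAAACA. The sequences printed here show where those letters stand before members and which promoters lack them. They are RefSeq sequences of the GRCm38.p6 build, found for 66 of the 78 members, written 5′ to 3′ in the direction of the gene, and the capitals mark the matches. The window searched ran from 250 bases before to 50 after the start of each gene, on both strands. A gene counted if any of its promoter sequences held a match. Bbs7 (a BBSome subunit), Cfap298 (needed to assemble dynein arms) and Cfap20dc (a protein related to Cfap20) were the members with a whole X-box. That is 3 of 66 members (4.55%), against 143 of all 27025 genes with a promoter sequence (0.529%).
Bbs7, chr3:36613474-36613533, minus strand: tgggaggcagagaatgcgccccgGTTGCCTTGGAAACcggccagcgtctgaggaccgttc
Cfap298, chr16:90935001-90935060, minus strand: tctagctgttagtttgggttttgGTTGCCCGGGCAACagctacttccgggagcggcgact
Cfap20dc, chr14:8666356-8666415, minus strand: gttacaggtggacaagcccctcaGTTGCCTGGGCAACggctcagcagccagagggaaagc

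The letters GTTGCC, 1 arm of the RFX X-box, read GGCAAC on the other strand and lie inside the X-boxes above. They stood in the window of 19 of the 66 members (28.8%) and of 3821 of all genes with a promoter sequence (14.1%). Among the members they stood in the window of 5 of the 11 IFT genes with an entry (45.5%), Ift140, Ift57, Ift27, Ift88 and Ift172. Ift140 is a subunit of transport complex A, and Ift57 and Ift27 of complex B. Drc1 belongs to the nexin-dynein regulatory complex, Tekt2 is a filament protein inside the doublet microtubules, and Cfap161 is a protein of motile axonemes.
Ift140, chr17:25015950-25016009, plus strand: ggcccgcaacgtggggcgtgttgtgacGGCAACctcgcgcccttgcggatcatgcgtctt
Ift57, chr16:49699180-49699239, plus strand: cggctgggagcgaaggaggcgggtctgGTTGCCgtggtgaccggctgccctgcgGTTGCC
Ift27, chr15:78174082-78174141, minus strand: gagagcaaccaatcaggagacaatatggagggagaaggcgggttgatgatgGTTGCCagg
Drc1, chr5:30281333-30281392, plus strand: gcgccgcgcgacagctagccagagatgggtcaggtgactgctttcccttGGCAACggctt
Tekt2, chr4:126325752-126325811, minus strand: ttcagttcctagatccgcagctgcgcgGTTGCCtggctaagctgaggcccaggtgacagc
Cfap161, chr7:83794873-83794932, minus strand: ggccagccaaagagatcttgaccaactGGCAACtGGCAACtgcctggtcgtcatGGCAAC

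GTTGCC was found in the window of 3 of 24 members that stayed near the lower limit of the intensities on all arrays (12.5%). Of the 42 others, 16 held it (38.1%). These shares were not tested. The forkhead letters GTAAACA stood in the window of Cfap43, Cfap20, Dnah17 and Tekt3. That is 4 of 66 members (6.06%), against 1095 of all genes with a promoter sequence (4.05%). A match describes letters and not binding.

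Dnah11 was the only member called different between states, and Cdca7l is a coding gene whose RefSeq span overlaps that of Dnah11 on the opposite strand. The 250 bases before each start are printed because both genes come up together below. They lie at opposite ends of the pair, so the genes are read towards each other. The window of Dnah11 held none of the 3 motifs.
Dnah11, chr12:118199044-118199293, minus strand: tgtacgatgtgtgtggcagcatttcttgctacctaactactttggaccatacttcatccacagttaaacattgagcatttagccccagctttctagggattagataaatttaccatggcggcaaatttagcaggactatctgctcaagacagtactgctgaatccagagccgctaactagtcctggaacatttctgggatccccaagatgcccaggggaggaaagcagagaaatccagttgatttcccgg
Cdca7l, chr12:117843611-117843860, plus strand: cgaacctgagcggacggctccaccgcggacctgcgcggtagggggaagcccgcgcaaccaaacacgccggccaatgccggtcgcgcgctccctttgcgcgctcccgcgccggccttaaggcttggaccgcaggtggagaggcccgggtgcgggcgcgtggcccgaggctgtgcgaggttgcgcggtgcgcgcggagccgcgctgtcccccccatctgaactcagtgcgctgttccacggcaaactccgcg

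Deposited intensities were whole numbers from 3 to 34883 on a linear scale. On each array 56.6 to 59.2% of probe sets were at or below 10, called near the lower limit here, and the 75th percentile lay between 83 and 104. Over all 10 arrays, 5767 of all genes (31.7%) never left that range. Each gene is represented by the probe set with the highest mean. Differences are given on the log2(intensity + 16) scale with their standard error (SE) from a limma fit over all 10 arrays, and a gene counted as called where the p-value, adjusted by Benjamini-Hochberg over all genes, was under 0.05. This scale understates changes of dim genes.

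The data showed signal for IFT genes in all 3 states and none above the lower limit for many genes of the motile axoneme. Of the 78 members, 28 (35.9%) stayed near the lower limit throughout, close to the 31.7% of all genes. None of the 14 IFT genes, of the 8 BBS genes and of the 4 genes of the ruler and the nexin-dynein regulatory complex was among them. In contrast, 9 of 15 dynein arm genes (60%), 3 of 5 tektins (60%), 14 of 25 Cfap genes (56%) and 2 of 6 radial spoke genes (33.3%) were. An intensity above 100 was reached on at least 1 array by 34 members, 12 of them IFT genes, and on every array by 4, all of them IFT genes. These levels come from different probes, so they tell which genes gave signal and do not rank transcripts.

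**Figure D1:**
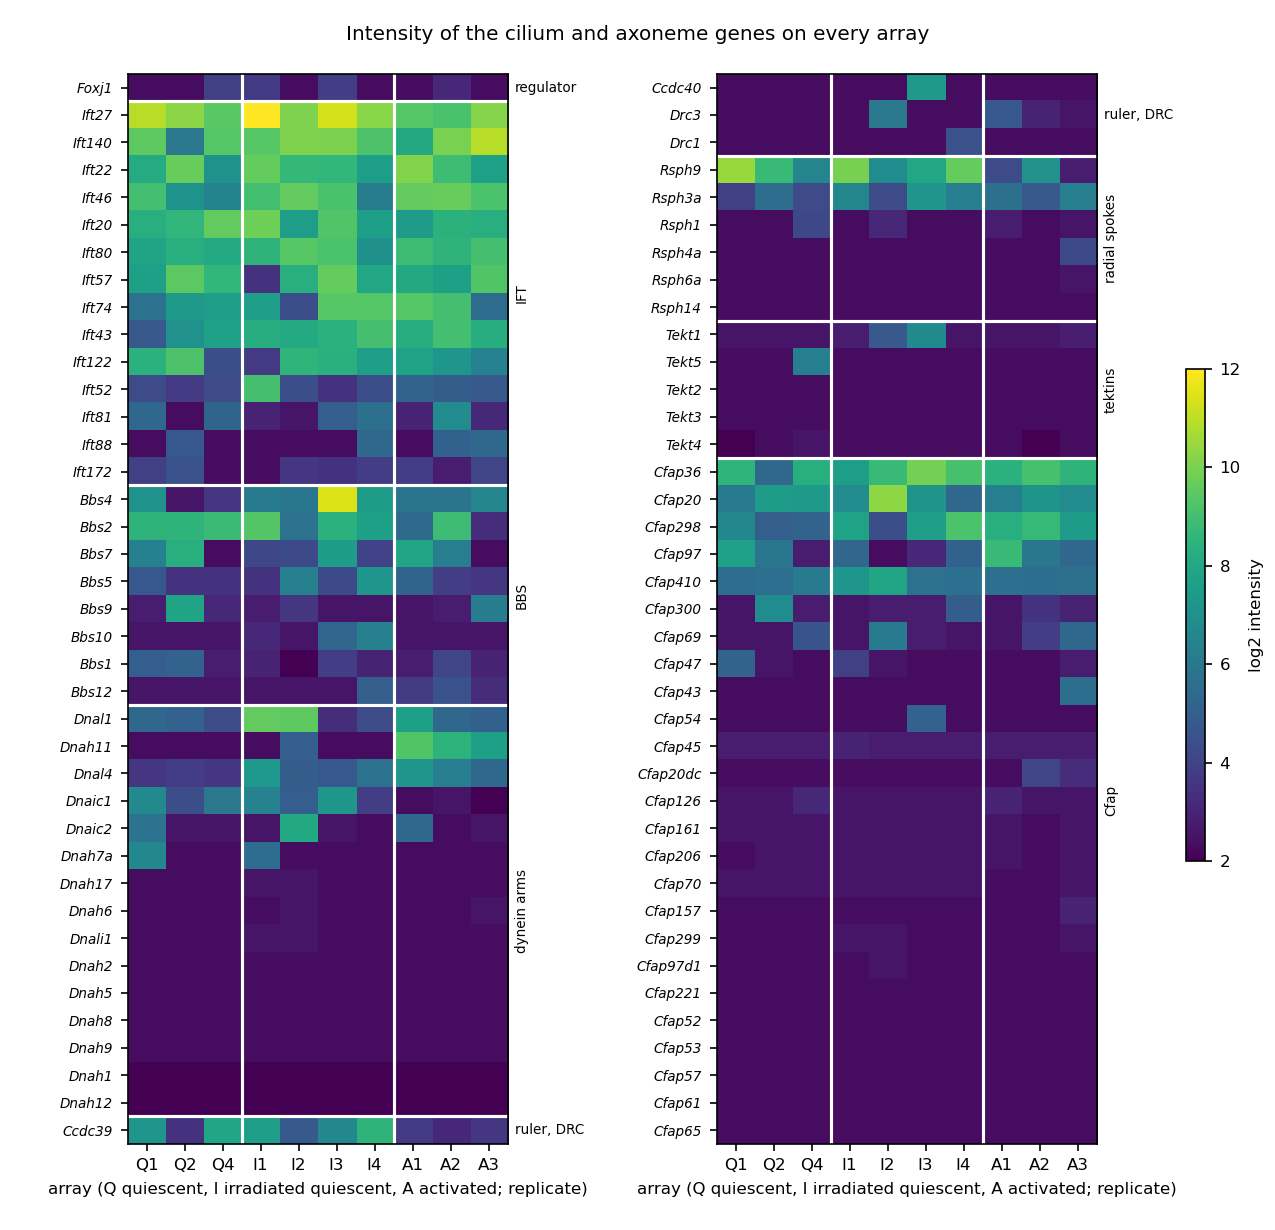
Log2 intensity of the 78 genes (rows, by role and then by mean) on the 10 arrays (columns, with replicate numbers after Q for quiescent, I for irradiated quiescent and A for activated). The rows of Ift20, Ift22, Ift27 and Ift80 are bright on all arrays, while 9 of 15 rows of the dynein arm block, 3 of 5 of the tektin block and 14 of 25 of the Cfap block stay dark, and single bright cells stand alone in rows such as Ccdc40.

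**Figure D2:**
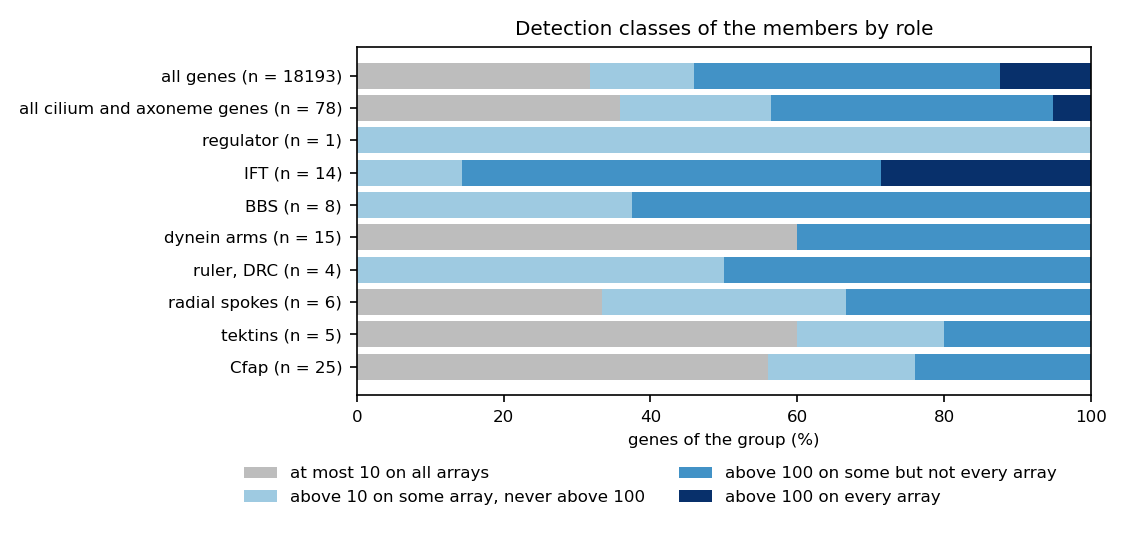
Share of genes, in percent, in 4 intensity classes for all genes, all members and each role. Grey marks genes at most 10 on all arrays and dark blue genes above 100 on every array; the grey part is absent for IFT and BBS genes and reaches 60% for dynein arms and tektins, and dark blue appears for IFT genes alone among the roles.

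The 28 dim members include 8 axonemal dynein heavy chains, the motors that bend a motile cilium (Dnah1, Dnah2, Dnah5, Dnah6, Dnah8, Dnah9, Dnah12 and Dnah17), and the inner arm light intermediate chain Dnali1. The others were Rsph14 and Rsph6a of the radial spokes, Tekt2, Tekt3 and Tekt4, and Cfap45, Cfap52, Cfap53, Cfap57, Cfap61, Cfap65, Cfap70, Cfap97d1, Cfap126, Cfap157, Cfap161, Cfap206, Cfap221 and Cfap299. For these genes no level can be given, and a difference between states that stayed below the limit would not have been visible.

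Foxj1, the factor that switches on motile cilium genes, stayed low. Its intensities were 5, 5 and 15 on the quiescent arrays, 13, 5, 14 and 5 on the irradiated arrays and 5, 9 and 5 on the activated arrays. The highest of these is just above the lower limit, and the groups overlap. The fitted difference of activated from quiescent was -0.10 ± 0.21 (SE, 95% interval -0.60 to 0.39, limma adjusted p = 1).

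In the comparison of activated with quiescent cells, 1 of the 78 members (1.28%) was called, against 6.02% of all genes (2.9% higher and 3.12% lower). It was Dnah11, which was higher in activated cells. The median log2 difference was 0.00 over the members and 0.00 over all genes, and the members ran from -3.04 to 4.16. Without activated array 1 or without activated array 3 the count was 2, with Cfap20dc or Cfap70 added. Cfap20dc was at 17 or below on all arrays. Cfap70 was at 5 or 6 on every array, so its difference is a step of whole numbers at the lower limit. In bulk RNA, fewer cells of a type and less RNA per cell cannot be told apart. At an unadjusted p under 0.05 stood 6 members, Dnah11, Dnal4, Ift43, Dnaic1, Rsph9 and Cfap70, against 16.1% of all genes. The arrays of the 2 states did not overlap, with a log2 difference of at least 1, for 6 members (7.69%), against 17.3% of all genes (8.79% higher and 8.51% lower). Dnah11, Cfap298, Ift46, Dnal4 and Ift43 were on the higher side and Dnaic1 on the lower.

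Dnah11 is a heavy chain of outer dynein arms, known from left-right patterning and airway cilia. Its intensity was 5 on each quiescent array, 5, 32, 5 and 5 on the irradiated arrays, and 626, 352 and 207 on the activated arrays. All activated arrays lay far above all others, and all but 1 of the rest were at the lower limit. The mean was 395 ± 213 (SD, n = 3) in activated cells and 11.75 ± 13.5 (SD, n = 4) in irradiated cells. The log2 difference of activated from quiescent was 4.16 ± 0.45 (SE, 95% interval 3.11 to 5.20, limma adjusted p = 0.00165). Without any 1 array and under the other alternatives run, the gene remained called, with log2 differences from 2.63 to 5.33. Other outer arm heavy chains, Dnah5, Dnah8, Dnah9 and Dnah17, never left the lower limit.

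Dnah11 is measured by 1 probe set, and its span in the RefSeq table overlaps that of Cdca7l on the opposite strand, the nuclear protein whose promoter is printed above. Cdca7l stood at 5 on each quiescent array, at 5, 6, 5 and 5 on the irradiated arrays and at 489, 174 and 143 on the activated arrays. The arrays that were high for Dnah11 were also those high for Cdca7l. Its log2 difference of activated from quiescent was 3.56 ± 0.38 (SE, limma adjusted p = 0.0016), and it was called under every alternative run. How much of the Dnah11 signal comes from RNA of its neighbour was not tested. The overlaps were looked up after the values were seen, and 17 of the 78 members overlap a coding gene in this way.

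Dnaic1, an intermediate chain of the outer dynein arm, was low in activated cells. Its intensities were 109, 21 and 63 on the quiescent arrays, 87, 32, 158 and 14 on the irradiated arrays and 5, 6 and 4 on the activated arrays. The activated arrays were all near the lower limit, below every other array. The log2 difference was -1.77 ± 0.70 (SE, 95% interval -3.40 to -0.14, limma adjusted p = 0.262), so the gene was not called. A second probe set gave 88, 13 and 32 in quiescent, 47, 14, 114 and 15 in irradiated and 6, 5 and 6 in activated cells, the same order of groups. The span of Dnaic1 overlaps that of Enho, which encodes a secreted peptide. Enho went from 7798, 4478 and 10261 on the quiescent arrays to 1930, 1471 and 2066 on the activated arrays, and the irradiated arrays lay between 5980 and 13628. Enho fell by 1.97 on the log2 scale (SE 0.40, limma adjusted p = 0.0305). That call was lost in 6 of 18 alternatives: with only the 2 groups in the fit, and without quiescent array 1 or 4 or any 1 activated array, with adjusted p from 0.0699 to 0.108. The part of Enho RNA in the Dnaic1 signal was not tested.

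**Figure D3:**
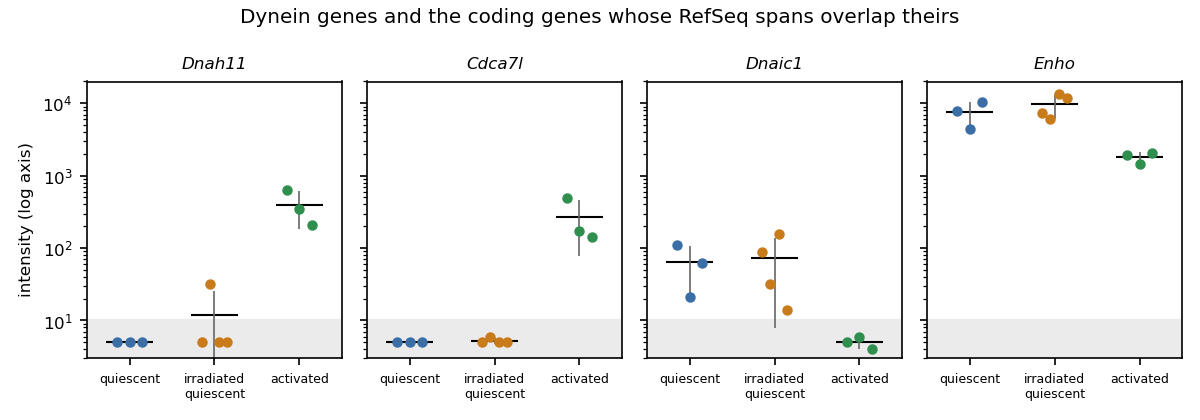
Intensity on a log axis of Dnah11 and Dnaic1 and of the coding genes Cdca7l and Enho whose spans overlap theirs, by state, with 1 point per array. Black bars are group means, grey lines are 1 SD to either side (drawn no lower than 3) and the grey band is the range up to 10. Dnah11 and Cdca7l are at 143 or above on the activated arrays, and Dnaic1 and Enho are lowest there.

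Of the other dynein genes, Dnal4, a small light chain, was at 12, 14 and 12 on the quiescent arrays, 163, 31, 27 and 54 on the irradiated arrays and 148, 78 and 41 on the activated arrays. Every irradiated and activated array lay above every quiescent array. The log2 difference of activated from quiescent was 1.74 ± 0.59 (SE, 95% interval 0.37 to 3.11, limma adjusted p = 0.178), which did not pass. Cfap298 was at 101, 33 and 36 in quiescent cells, 226, 21, 190 and 582 in irradiated cells and 309, 421 and 185 in activated cells. The activated arrays were above the quiescent arrays, while the irradiated arrays spanned both. Its log2 difference was 2.19 ± 0.95 (SE, limma adjusted p = 0.318). A second Cfap298 probe set read 151, 36 and 21 in quiescent and 344, 292 and 312 in activated cells.

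Among the IFT genes, the 4 above 100 on every array by the probe set used were Ift20, Ift22, Ift27 and Ift80, all of complex B. Ift20, which also sits at the Golgi, read 313, 381 and 768 in quiescent, 888, 191, 628 and 202 in irradiated and 182, 343 and 312 in activated cells. Ift22, a small GTPase-like subunit, read 287, 808 and 141 in quiescent, 804, 401, 397 and 196 in irradiated and 1107, 473 and 209 in activated cells. For both genes the groups overlap over most of their range. The log2 difference of activated from quiescent was -0.71 ± 0.66 for Ift20 (SE, 95% interval -2.25 to 0.83) and 0.55 ± 0.82 for Ift22 (SE, 95% interval -1.37 to 2.47).

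Ift27, a GTPase that helps the BBSome leave the cilium, read 1960, 1231 and 687 in quiescent, 4523, 1065, 2625 and 1182 in irradiated and 657, 564 and 1177 in activated cells. Irradiated arrays 1 and 3 were the highest, and the groups overlap. Ift80 read 230, 317 and 278 in quiescent, 364, 676, 575 and 131 in irradiated and 457, 364 and 530 in activated cells. The activated arrays lay above the quiescent arrays, by a log2 difference of 0.68 ± 0.54 (SE, 95% interval -0.59 to 1.94). A second Ift80 probe set read 5 on each quiescent array and did not exceed 29 on any array. For Ift27 the difference was -0.63 ± 0.64 (SE, 95% interval -2.14 to 0.87). None of the 4 genes passed the test, and their intervals still admit a change of more than 1 on the log2 scale.

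Ift43, a subunit of complex A, read 28, 132 and 209 in quiescent, 304, 278, 339 and 536 in irradiated and 304, 515 and 298 in activated cells. Every irradiated and activated array was above every quiescent array, and the irradiated and activated arrays overlap. Its log2 difference of activated from quiescent was 1.73 ± 0.59 (SE, 95% interval 0.35 to 3.10, limma adjusted p = 0.182). Ift46, of complex B, read 510, 136 and 92 in quiescent, 496, 779, 555 and 75 in irradiated and 781, 808 and 575 in activated cells. The activated arrays were above the quiescent ones, and irradiated array 4 was the lowest of all. The log2 difference was 1.83 ± 0.90 (SE, limma adjusted p = 0.403). Over the 14 IFT genes the median log2 difference was 0.53, beside 0.00 for all genes. None of the 14 was called, against 6.02% of all genes.

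The other IFT genes varied within groups. Ift140 read 736, 62 and 651 in quiescent, 674, 1075, 1033 and 584 in irradiated and 264, 1011 and 1948 in activated cells. Ift57 was at 11 on irradiated array 1 and between 208 and 797 on the 9 others. Ift52 was at 527 on irradiated array 1 and between 11 and 36 on the others. Ift172 never exceeded 23 and Ift88 never exceeded 42, and both belong to complex B.

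**Figure D4:**
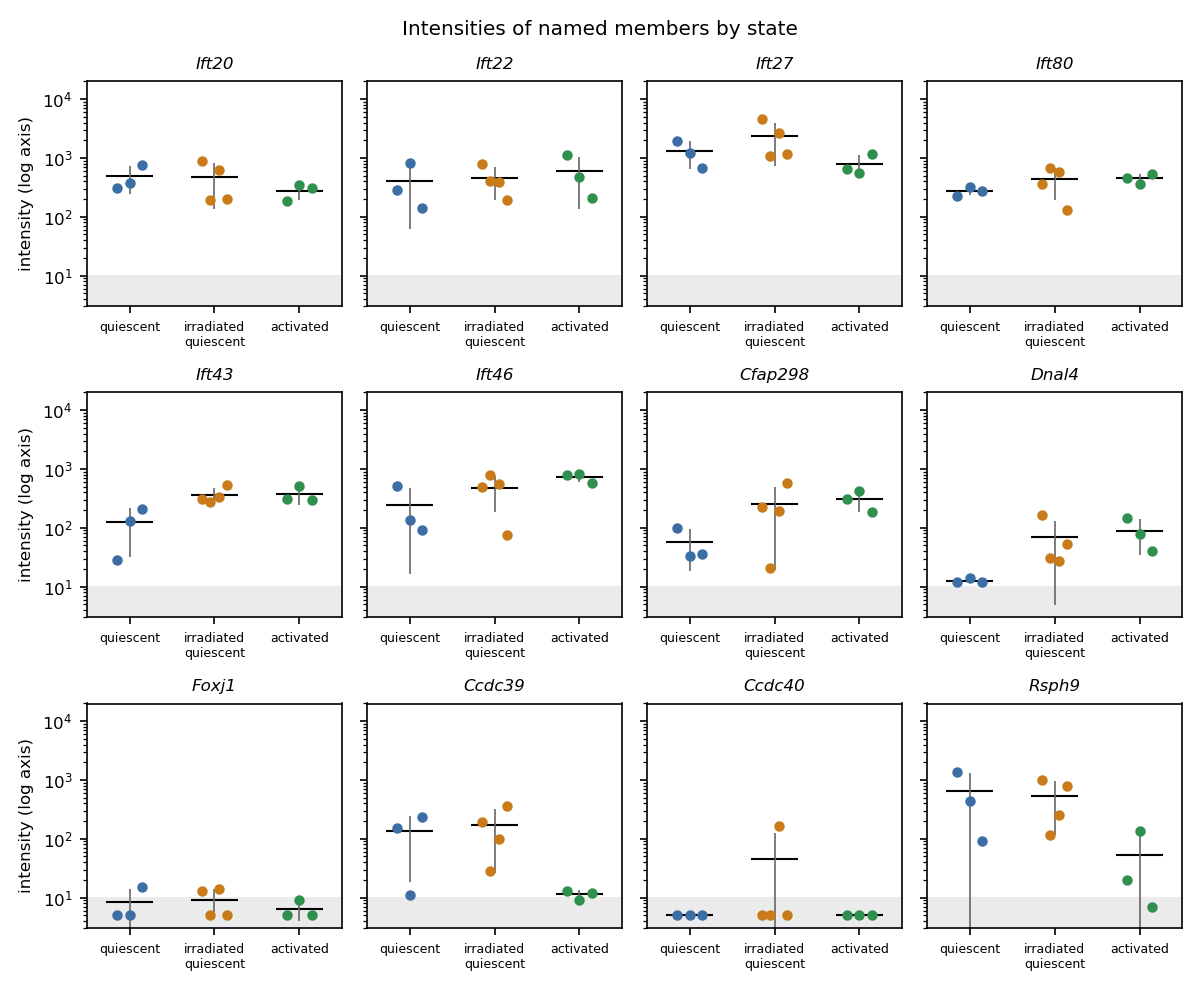
Intensity on a log axis of 12 members by state, with 1 point per array, black bars for group means, grey lines for 1 SD to either side (drawn no lower than 3) and a grey band up to 10. Ift20, Ift22, Ift27 and Ift80 stay above 100 on every array, Ift43 and Dnal4 have all irradiated and activated points above the quiescent points, and Foxj1 never passes 15.

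The radial spoke and ruler genes varied widely. Rsph9, a protein of the spoke head, read 1390, 435 and 93 in quiescent, 988, 115, 253 and 793 in irradiated and 20, 134 and 7 in activated cells. The activated arrays were low but overlap the other groups. Its log2 difference of activated from quiescent was -3.04 ± 1.22 (SE, 95% interval -5.89 to -0.19, limma adjusted p = 0.271), the most negative among the members, and it was not called. Its span overlaps that of Mrps18a, a mitochondrial ribosomal protein, for which the log2 difference was 0.92 ± 1.19 (SE, limma adjusted p = 0.893). Rsph3a stayed between 15 and 149 by the probe set used, while a second probe set ran from 5 to 244. Rsph1 and Rsph4a did not exceed 19.

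Ccdc39 and Ccdc40 form the ruler that sets the spacing of inner dynein arms and spokes. Ccdc39 read 150, 11 and 239 in quiescent, 195, 28, 101 and 365 in irradiated and 13, 9 and 12 in activated cells. The activated arrays were all low, at 13 or less, as was quiescent array 2 at 11. The log2 difference was -1.94 ± 1.00 from quiescent (SE, limma adjusted p = 0.445) and -2.39 ± 0.94 from irradiated cells (SE, limma adjusted p = 0.24). Another probe set of Ccdc39 read 154 on activated array 3 and 48 or less on the other arrays. Ccdc40 was at 5 on 9 arrays and at 167 on irradiated array 3.

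The BBS genes all gave some signal, and none was above 100 on every array. Of the 5 that exceeded 100 on any array, 4 (80%) had an array at most 10 and an array above 100 within the same group. This was by the probe set used. The share was 38.2% over the members that exceeded 100 (13 of 34), 30.6% over all such genes (3010 of 9848), and 8.33% over the IFT genes (1 of 12). Bbs2, of the BBSome core, read 361, 365 and 447 in quiescent, 635, 54, 336 and 205 in irradiated and 44, 459 and 10 in activated cells. The quiescent arrays agreed closely and the activated arrays did not. The log2 difference was -2.16 ± 1.16 (SE, limma adjusted p = 0.469). Bbs4 reached 2874 on irradiated array 3 and lay between 6 and 182 on the others. That probe set put Bbs4 among the 4, with 141, 6 and 12 in quiescent cells. By other probe sets the quiescent arrays read 195, 178 and 151, or 180, 48 and 98, and neither fell to 10 on any array. A dimmer probe set read 18, 7 and 7 there. Bbs7 read 84, 305 and 5 in quiescent, 18, 19, 181 and 16 in irradiated and 239, 78 and 5 in activated cells.

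By the probe set used, exactly 1 array passed 100 for 10 members, and it was not the same array each time. They were Bbs9 and Cfap300 on quiescent array 2, Dnah7a on quiescent array 1, Ift52 on irradiated array 1, Dnaic2 on irradiated array 2, Ccdc40, Rsph3a and Tekt1 on irradiated array 3, Bbs5 on irradiated array 4, and Ift81 on activated array 2. The values ran from 103 for Dnah7a to 527 for Ift52. Per array, 29 to 33 members exceeded 10, with overlapping ranges in the 3 states. The summed intensity of the members was 5387 to 8341 on the quiescent arrays, 7657 to 14096 on the irradiated arrays and 7602 to 7943 on the activated arrays.

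Probe sets of the same gene did not always follow each other. The 78 members had 122 probe sets, and 31 members had several. Ift122, of complex A, read 339, 591 and 21 on the quiescent arrays by the probe set used and 5, 5 and 782 by the other. The array that was lowest by one was the highest by the other. Dnal1, an outer arm light chain, read 780 and 730 on irradiated arrays 1 and 2 by the probe set used, and 37 and 13 there by another that reached 525 on quiescent array 1. For Ift27, 2 of 3 probe sets were highest on irradiated array 1, at 4523 and 3231, and the third lay between 44 and 358. Probe sets that name several genes were not used: one for Rsph3a and Rsph3b read from 48 to 1041, and one for Dnah7b and Dnah7c reached 115.

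**Figure D5:**
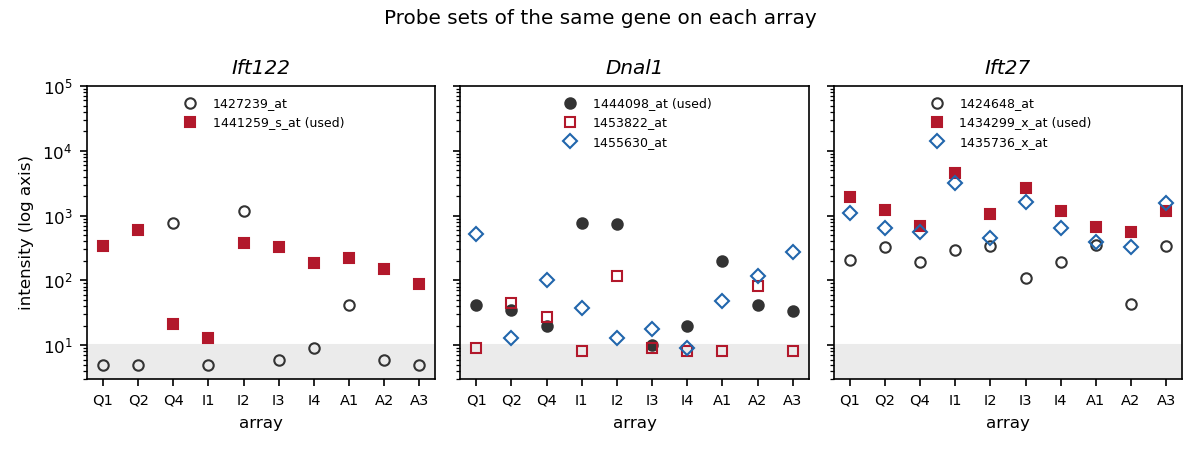
Intensity on a log axis of each probe set of Ift122, Dnal1 and Ift27 on the 10 arrays (Q quiescent, I irradiated quiescent, A activated), with filled markers for the probe set used and a grey band up to 10. For Ift122 the 2 probe sets stand in opposite positions on Q4, at 21 and 782, while 2 of the 3 Ift27 probe sets move together.

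Irradiation changed no member by the test. In the comparison of irradiated with quiescent cells 0 of 78 members were called, against 0.011% of all genes (0.0055% higher and 0.0055% lower). Dnal4 and Ift43 stood at an unadjusted p under 0.05, against 3.97% of all genes. They were also the 2 members (2.56%) whose arrays did not overlap with a log2 difference of at least 1, against 2.26% of all genes (1.19% higher and 1.07% lower). With the values given above, the log2 difference was 1.70 ± 0.55 for Ift43 (SE, 95% interval 0.41 to 2.98) and 1.31 ± 0.55 for Dnal4 (SE, 95% interval 0.03 to 2.59). Both had a limma adjusted p of 0.965. The activated and irradiated comparisons share the quiescent arrays, so low quiescent values enter both.

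The 4 genes above 100 on every array by the probe set used were also compared between irradiated and quiescent cells. Ift20 differed by -0.22 ± 0.62 (SE, 95% interval -1.66 to 1.22) and Ift22 by 0.29 ± 0.77 (SE, 95% interval -1.50 to 2.09). Ift27 differed by 0.72 ± 0.60 (SE, 95% interval -0.68 to 2.13) and Ift80 by 0.43 ± 0.51 (SE, 95% interval -0.75 to 1.61). The 4 intervals include 0, and each also admits a shift of more than 1. Over the members the median was 0.00, as over all genes.

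Set against irradiated quiescent cells, activated cells again had Dnah11 as the 1 member called (1.28%), against 7.1% of all genes (3.41% higher and 3.69% lower), with a log2 difference of 3.86 ± 0.42 (SE, 95% interval 2.88 to 4.84, limma adjusted p = 0.00154). Arrays of the 2 groups did not overlap, with a log2 difference of at least 1, for 4 members (5.13%), against 14.7% of all genes (7.49% higher and 7.23% lower). These were Dnah11 and Cfap97 on the higher side and Dnaic1 and Ccdc39 on the lower side. Cfap97 read 39, 5, 9 and 34 in irradiated and 444, 60 and 42 in activated cells, but 210, 61 and 7 in quiescent cells. Its quiescent and activated arrays thus overlap. Unadjusted p under 0.05 was reached by 6 members, against 17.2% of all genes. Here too the count was 2 without activated array 1 or 3, with the same additions. The comparison shares the activated arrays with the first.

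The partners of these genes under other names were taken from 7 lists. Of 19 measured IFT partners none was called in activated against quiescent cells (median log2 difference 0.20), where 6.02% of all genes were. The smallest adjusted p values belonged to Ttc30b, a complex B subunit (-2.13 ± 0.74, SE, limma adjusted p = 0.193), Cluap1, also of complex B (1.18 ± 0.41, SE, limma adjusted p = 0.198), and Ttc21b of complex A (0.90 ± 0.41, SE, limma adjusted p = 0.354). Ttc30b read 183, 194 and 12 in quiescent and 8 on each activated array, so quiescent array 4 stood with the activated ones. Transition zone genes build the gate at the base of the cilium. Of 9 BBSome partners (median -0.27) and 18 transition zone genes (median -0.07) none was called, against the same 6.02%. The lowest adjusted p was 0.361 in the former, for Trim32, and 0.194 in the latter, for Tmem107. Tmem107 read 39, 5 and 5 in quiescent and 281, 150 and 316 in activated cells.

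The hedgehog pathway signals through the primary cilium. Of 17 measured genes of the ciliary membrane and this pathway, 0 rose and 1 fell in activated cells (5.88%), a share close to the 6.02% of all genes. Gli3, which in its processed form represses hedgehog targets, read 1486, 1735 and 1693 in quiescent and 712, 318 and 271 in activated cells, and lay between 944 and 2275 after irradiation. All activated arrays were below all others. It fell by 2.00 on the log2 scale (SE 0.42, limma adjusted p = 0.0327), a call lost in 9 of 18 alternatives. They include leaving out any 1 quiescent array, irradiated array 2 or 4, or activated array 2 or 3, with adjusted p from 0.0535 to 0.114. Ptch1, the hedgehog receptor, went from 4130, 3349 and 3827 to 1469, 1572 and 1618 and did not pass (-1.27 ± 0.30, SE, limma adjusted p = 0.058), nor did the effector Gli1 (1.55 ± 0.67, SE, limma adjusted p = 0.313). The list's median was -0.32.

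Of 33 further motile axoneme and assembly genes, 16 (48.5%) never left the lower limit, Hydin, Spag6l, Armc4 and Ccdc103 among them. Dnaaf2, a cytoplasmic factor that folds dynein arms, was the 1 that rose and none fell (3.03%, against 6.02% of all genes). It read 8, 10 and 27 in quiescent, 65, 76, 65 and 14 in irradiated and 314, 278 and 117 in activated cells. The activated arrays were above all others, by 2.97 ± 0.53 over quiescent (SE, limma adjusted p = 0.0175). The call was lost in 6 of 18 alternatives, among them those without quiescent array 1 or 2 or activated array 1 or 2, with adjusted p from 0.0548 to 0.155. Kif9 (-0.55 ± 0.24, SE, limma adjusted p = 0.326) followed. In activated against irradiated cells 0 of the 33 genes were called, so Dnaaf2 was not, against 7.1% of all genes.

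Of 15 multiciliation factors 3 rose and 1 fell (26.7%, against 6.02% of all genes), and the median was 0.00. Those that rose also act in dividing cells: Gmnn, an inhibitor of replication licensing, Plk4, the kinase that starts centriole duplication, and Tfdp1, a partner of E2F factors. Gmnn went from 5, 16 and 5 to 193, 418 and 144 (3.34 ± 0.35, SE, limma adjusted p = 0.00149) and Plk4 from 5 on each quiescent array to 257, 969 and 760 (4.82 ± 0.53, SE, limma adjusted p = 0.00183). Tfdp1 passed narrowly (3.14 ± 0.70, SE, limma adjusted p = 0.0449), and its call was lost in 11 of 18 alternatives, among them those without any 1 array but irradiated array 4, with adjusted p from 0.0502 to 0.138. Ccno, Cdc20b, Deup1 and Trp73, which act in cells making many cilia, never left the lower limit.

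The RFX factors, whose known motif is the X-box, were part of this list. Rfx4 fell, from 778, 1640 and 1678 in quiescent to 437, 80 and 86 in activated cells, with 998 to 1849 after irradiation (-2.99 ± 0.63, SE, limma adjusted p = 0.0351). The call was lost in 11 of 18 alternatives, among them those without any 1 array but activated array 1, with adjusted p from 0.0516 to 0.227. Rfx3 read 2029, 1372 and 1591 in quiescent and 1642, 2067 and 2856 in activated cells (0.37 ± 0.25, SE, 95% interval -0.22 to 0.97, limma adjusted p = 0.646). Rfx2 read 855, 220 and 248 against 120, 12 and 28 and did not pass (-2.78 ± 0.87, SE, limma adjusted p = 0.145). Both are named for their role and were chosen after their values were seen.

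Genes that duplicate centrioles or take the cilium down had the highest median of the 7 lists. Of 18 measured, 5 rose and none fell in activated cells (27.8%, against 6.02% of all genes), with a median log2 difference of 1.57. Aurka, a kinase of mitosis and of cilium disassembly, went from 6, 12 and 5 to 1248, 1387 and 494, a log2 difference of 5.36 ± 0.48 (SE, limma adjusted p = 7.39e-04). Stil, a centriole assembly factor, went from 5 on each quiescent and irradiated array to 110, 523 and 527 (3.99 ± 0.51, SE, limma adjusted p = 0.00393). Cenpj, which sets centriole length, went from 5 on each quiescent array to 47, 99 and 148 (2.33 ± 0.30, SE, limma adjusted p = 0.00369). The mitotic kinases Plk1 and Nek2 were the other 2. Aurka remained called in all 18 alternatives. The other 4 lost their calls when the fit held just 2 groups (adjusted p from 0.0613 to 0.0726), and Stil, Cenpj and Plk1 also with the replicate block (adjusted p from 0.0606 to 0.0619). None of the 7 lists had a member called after irradiation, where 0.011% of all genes were.

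Other cell types in the sorts were read from markers. Of 17 measured ependymal markers, 7 (41.2%) stayed near the lower limit throughout, against 31.7% of all genes. Tmem212, Fam183b and Mlf1 were among these 7. Another 8 exceeded 100 on at least 1 array, 2 of them on every array. Of the 17 markers, 5 also stand in the motile axoneme list. The summed intensity of the 17 was 7604 to 13751 in quiescent, 6745 to 15080 in irradiated and 8294 to 15048 in activated cells. S100b and Rarres2 fell and Cd24a rose in activated cells. The share of the list called was 17.6%, against 6.02% of all genes. Which cells made the RNA of these 3 genes was not tested. Choroid plexus markers (9 measured) summed to 10847 to 17898 in quiescent, 10065 to 20284 in irradiated and 51 to 143 in activated cells, but 1 gene carried the sums in quiescent and irradiated cells. Ttr, which encodes transthyretin, read 9992 to 19809 on the quiescent and irradiated arrays and 6 on each activated array. On irradiated arrays 2 and 3, 3 of the 9 markers exceeded 100, against 1 on each other irradiated or quiescent array. The median log2 difference of the choroid plexus list was -0.02, and 1 of its genes was called (11.1%, against 6.02% of all genes). Oligodendrocyte markers (7 measured) summed to 20319 to 28115, 16759 to 27017 and 1743 to 5156 in the same order. Proliferation markers (5 measured) summed to 43 to 232, 40 to 65 and 27797 to 32530. The part of these cells and of cell division in the member values was not tested.

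The sorts held astroglial stem cell transcripts in all states. The 9 neural stem cell and astroglia markers summed to 68461 to 75822 in quiescent, 65046 to 73394 in irradiated and 19406 to 25730 in activated cells. They did not move together. In activated against quiescent cells 1 rose and 3 fell (44.4%, against 6.02% of all genes), with log2 differences from -4.40 to 2.98 over the list. Neuron markers (7 measured) summed to 538 to 14292, 1026 to 4001 and 326 to 770, with quiescent array 1 the highest. Neuroblast markers (6 measured) summed to 439 to 1837, 258 to 2165 and 19874 to 22834, endothelial markers (6 measured) to 30 to 1146, 30 to 119 and 70 to 360, and microglia markers (5 measured) to 29 to 751, 25 to 31 and 71 to 2961. Quiescent array 1 was the highest of the quiescent arrays for Dnaic1, Rsph9, Ift46 and Cfap298 and the lowest for Ift43, Ift20 and Ift80.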

How the data were processed

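Per the labels' protocols, amplification used the NuGEN Ovation Pico WTA System. The deposited values are intensities, 1 for each probe set on each array. The software that made the intensities from the scans is not given in the sources used here. Their number limits the precision, and scan batches were not analysed here. Of 45037 probe sets, 34945 had 1 symbol, 932 several and 9160 none in the platform annotation. A gene was its probe set with 1 symbol and the highest mean, which gave 18193 genes.

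Values were taken as log2(intensity + 16), a pseudocount of 16, with no further normalization or filter. Groups were compared with limma 3.58.1 (R 4.3.3), with lmFit on all 10 arrays and eBayes, as a two-sided test, and p-values were adjusted by Benjamini-Hochberg across the 18193 genes. Residual degrees of freedom were 7, to which the prior adds 0.422. The steps were tested on simulated data.

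The members and lists were chosen with earlier results of these data known. The rule for named genes took Foxj1, Ccdc39 and Ccdc40, members called, members whose arrays do not overlap with a log2 difference of at least 1, members above 100 on every array, and up to 3 genes of each list by adjusted p. Genes beyond it were named after their values were seen. The alternatives were other pseudocounts, quantile normalization, a filter, other uses of probe sets, a fit of 2 groups, a replicate block, and leaving out each array.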

Additional observations from a re-analysis of the deposited data

Results flagged for a closer look

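Among the 13 named members, 2 had 1 irradiated array far from the other 3, by Dixon's criterion for 4 arrays. Ccdc40 read 5, 5, 5 and 167 and Dnah11 read 5, 32, 5 and 5, so the gap took the whole range in both (ratio 1). The high array was irradiated array 3 for Ccdc40 and irradiated array 2 for Dnah11. In both genes the other 3 arrays are tied at the lower limit, so any value of the remaining array off the limit gives this ratio, and the usual rate of about 1 group in 20 does not apply. Groups of 3 arrays were not examined.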

How the results depend on the processing

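Dnah11 was called in activated against quiescent cells in all 18 alternatives (adjusted p from 9.46e-04 to 0.0307) and against irradiated cells in all 18 (8.02e-04 to 0.0244). The number of members called was 1, 0 and 1 in the 3 comparisons under each alternative, except when 1 array was left out, where it ranged from 1 to 2 in both activated comparisons and stayed 0 after irradiation. Differences changed sign for 2 uncalled genes: with 1 array left out, Foxj1 ran from -0.2 to 0.08 (without quiescent replicate 4) and Ift22 from -0.03 (without activated replicate 1) to 1.19. With only the 2 groups in the fit, Cenpj (adjusted p = 0.0613), Stil (0.0639), Plk1 (0.0682) and Nek2 (0.0726) lost their calls; the cause was not tested. Without the dimmest 50% of genes 29 of 78 members were tested.

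The replicate block left 1, 0 and 1 members called, Dnah11 in both. Over all genes it gave 459 calls in activated against quiescent cells, where the fit without it gave 1095, and 710 against 1292 in activated against irradiated cells. With only the 2 groups the first count was 694. Under the block Plk4 (adjusted p = 0.0659), Stil (0.0619), Cenpj (0.0606) and Plk1 (0.0606) lost their calls. Same-numbered samples did not deviate together (r from -0.031 to 0.024 over 8 pairs). The labels give only replicate numbers, so this cannot tell whether such samples were collected together. After irradiation the calls over all genes went from 2 to 46 when quiescent array 4 was left out, to 14 when array 1 was and to 13 when array 2 was.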
